A study of Mus musculus with 8 samples.

Results

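The immune receptor and interferon gene families were followed through the H3K9me3 peaks of mouse colon crypts. A peak was counted as a member when the gene that the authors had annotated to it, the closest within 5 kb, carried a name of 1 of 17 families: the lectin receptors (Klr, Clec), the immunoglobulin-like receptors (Pir, Lilr, Siglec, Cd300), the MHC genes (H2), the interferon-inducible families (Slfn, Gbp, Ifi2), the antigen receptor genes (Igh, Igk, Igl, Tra, Trb) and the NLR sensors (Nlrp, Naip). This gave 137 of 53761 peaks, at 61 genes. The rule itself uses only the name of the gene and no measured value.

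H3K9me3 had been measured by ChIP-seq in whole, unsorted crypt isolates of C57BL/6 mice, with 3 KO and 3 WT libraries and 1 library of input DNA (chromatin taken before the immunoprecipitation) per genotype. KO mice were homozygous for a floxed Smarcad1 allele, in which the exons coding for the ATP-binding part of this chromatin remodeler are removed by Vil-Cre. The Cre is driven by the Vil1 (villin) promoter and acts in the intestinal epithelium, so other cells in the isolate keep the gene, and the floxed line came from ES cells of the same strain background. The study describes its mice as male, and their age is not given in the sources used here. Each library was taken as a replicate of its genotype, and where the labels do not say that libraries came from separate animals, p-values measure the spread between these libraries.

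H3K9me3 is a histone mark of silent chromatin, found over transposons and over many clusters of gene copies that arose by duplication. Immune receptor families sit in such clusters, where neighbouring genes are similar in sequence and most are used only in leukocytes or, for many Nlrp genes, in the germ line. In a colon epithelial cell most of these genes are not used, while H2 genes, guanylate-binding proteins and Schlafens respond to interferon there too.

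The sequences under the peaks on which the results turn were read from the GRCm38.p6 reference, plus strand, 5′ to 3′. Capitals mark bases outside annotated repeats and lower case marks bases that the reference masks as repeats. The first stretch is the middle of the called peak with the largest decrease in KO, which lies beyond the 3′ end of Klrb1c. The second is the part of the neighbouring 2400-bp peak that the most other peaks share. The third is the whole 300-bp peak in an intron of Clec2g, the member with the most negative fold change. The last is the middle of the widest member peak, in an intron of Nlrp4e, which showed no such difference.
Klrb1c, 900-bp peak, chr6:128775151-128775450: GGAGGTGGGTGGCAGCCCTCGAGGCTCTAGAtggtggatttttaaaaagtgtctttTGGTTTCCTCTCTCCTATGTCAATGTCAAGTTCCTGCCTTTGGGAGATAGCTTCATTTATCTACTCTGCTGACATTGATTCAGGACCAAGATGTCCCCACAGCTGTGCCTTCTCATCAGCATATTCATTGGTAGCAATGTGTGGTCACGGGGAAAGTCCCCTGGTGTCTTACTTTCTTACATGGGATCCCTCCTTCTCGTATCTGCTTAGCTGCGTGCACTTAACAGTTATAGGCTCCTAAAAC
Klrb1c, 2400-bp peak, chr6:128773453-128773752: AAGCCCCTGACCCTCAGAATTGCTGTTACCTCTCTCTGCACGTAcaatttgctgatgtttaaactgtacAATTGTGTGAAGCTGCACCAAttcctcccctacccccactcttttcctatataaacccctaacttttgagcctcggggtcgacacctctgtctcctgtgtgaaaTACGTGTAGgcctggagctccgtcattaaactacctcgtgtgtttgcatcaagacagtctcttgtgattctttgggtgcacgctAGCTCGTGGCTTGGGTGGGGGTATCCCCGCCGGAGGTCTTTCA
Clec2g, intron, chr6:128941501-128941800: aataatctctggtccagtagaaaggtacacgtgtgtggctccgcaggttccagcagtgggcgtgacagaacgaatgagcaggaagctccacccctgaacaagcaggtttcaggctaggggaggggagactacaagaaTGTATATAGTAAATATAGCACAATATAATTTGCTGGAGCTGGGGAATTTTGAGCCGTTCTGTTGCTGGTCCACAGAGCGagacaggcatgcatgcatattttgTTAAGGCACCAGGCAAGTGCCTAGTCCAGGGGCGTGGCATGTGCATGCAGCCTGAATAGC
Nlrp4e, intron, chr7:23312601-23312800: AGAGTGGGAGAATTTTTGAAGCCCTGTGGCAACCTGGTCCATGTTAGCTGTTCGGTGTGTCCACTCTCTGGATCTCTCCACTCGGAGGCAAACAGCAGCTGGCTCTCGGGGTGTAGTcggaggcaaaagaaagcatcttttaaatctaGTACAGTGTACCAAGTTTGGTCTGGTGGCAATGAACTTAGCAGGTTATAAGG
The Klrb1c stretch of the 900-bp peak is 8.33% repeat and 47.0% GC, and the shared stretch beside it is 61.0% repeat and 50.3% GC. The Clec2g peak is 53.7% repeat and 50.7% GC, and the Nlrp4e stretch 15.5% repeat and 49.0% GC.

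Of the 137 member peaks, 3 passed the test between KO and WT, all 3 were lower in KO, and all 3 lay at Klrb1c. No member passed with a higher level in KO. Every peak of the table was tested with limma on the deposited log2 read counts, in a model that held genotype alone, and was called at a Benjamini-Hochberg adjusted p under 0.05 over all 53761 peaks. By that rule 0.863% of all peaks were called lower and 0.796% higher, beside 2.19% and 0 of 137 for the members. All members have a gene within 5 kb, and among the 15680 peaks of that kind 1.42% were called lower and 2.49% higher. At an unadjusted p under 0.05 there were 11 members, 10 of them lower in KO and 1 higher, and 10.6% of all peaks, of which 3256 were lower and 2432 higher. KO values lay entirely below the WT values at 11 members (8.03%), where 8.42% of all peaks did so, and entirely above at 8 members (5.84%), where 7.2% of all peaks did. These shares were near the background, and without the Klrb1c peaks 8 members (5.97%) lay below and 8 above. The 95% interval of the KO difference lay within 1 log2 unit on either side of 0 at 88 members, and the median standard error was 0.30. At the other 49 members, the 900-bp and 2400-bp Klrb1c peaks among them, the interval reached past that size.

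Klrb1c encodes an activating lectin receptor of natural killer cells and lies in the natural killer gene complex of chromosome 6, on the minus strand from 128778485 to 128789215. Its 3 peaks followed each other within 8.1 kb over and beyond the 3′ end of the gene. The peak of 900 bp (chr6:128774851-128775750), 2735 bp beyond the 3′ end, had log2 read counts of 4.27, 4.84 and 4.26 in WT replicates 1 to 3 and of 1.96, 2.59 and 2.42 in KO. All KO values lay far below the lowest WT value. The difference was -2.13 (standard error 0.38, 95% interval -2.89 to -1.38, limma adjusted p = 0.000154), which is 4.38-fold lower. The reads recovered from the steps of the values were 17, 32 and 22 in WT and 3, 6 and 6 in KO, so the KO level rests on few reads.

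The peak of 2400 bp next to it (chr6:128772301-128774700), 3785 bp beyond the 3′ end, had log2 read counts of 5.79, 5.88 and 5.33 in WT and of 4.66, 4.54 and 4.55 in KO. Here too the groups did not overlap. The difference was -1.08 (standard error 0.21, 95% interval -1.502 to -0.664, limma adjusted p = 0.000685), or 2.12-fold lower. The third peak, of 4050 bp (chr6:128776351-128780400), covers the last 1916 bp of the gene, exonic sequence included. It had the highest WT level per kb of all members (5.27 log2 reads per kb), with log2 read counts of 7.39, 7.28 and 7.20 in WT and of 6.91, 6.75 and 6.61 in KO. The difference was smaller, at -0.53 (standard error 0.13, limma adjusted p = 0.0159). This last call was lost without WT replicate 1 (limma adjusted p = 0.131), without WT replicate 2 (0.0738), without KO replicate 3 (0.0698) and with a variance prior without a trend (0.508), while the calls of the 900-bp and 2400-bp peaks held without any single library. The 2400-bp peak lost its call with the prior without a trend (limma adjusted p = 0.170).

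Input DNA over the 3 Klrb1c peaks held 9, 23 and 47 reads in WT and 4, 22 and 43 reads in KO, in the order 900, 2400 and 4050 bp. With the log2 input of the same genotype subtracted, the differences were -0.96, -1.02 and -0.40, and the 4050-bp peak no longer passed (limma adjusted p = 0.208). Within 200 kb of Klrb1c there were 15 other peaks, 12 of them with a negative difference, and none passed the test. Measured from the outer edges of the 3 Klrb1c peaks, the next peak was 81.0 kb away on the side beyond the 3′ end and 94.1 kb away on the other side.

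**Figure D1:**
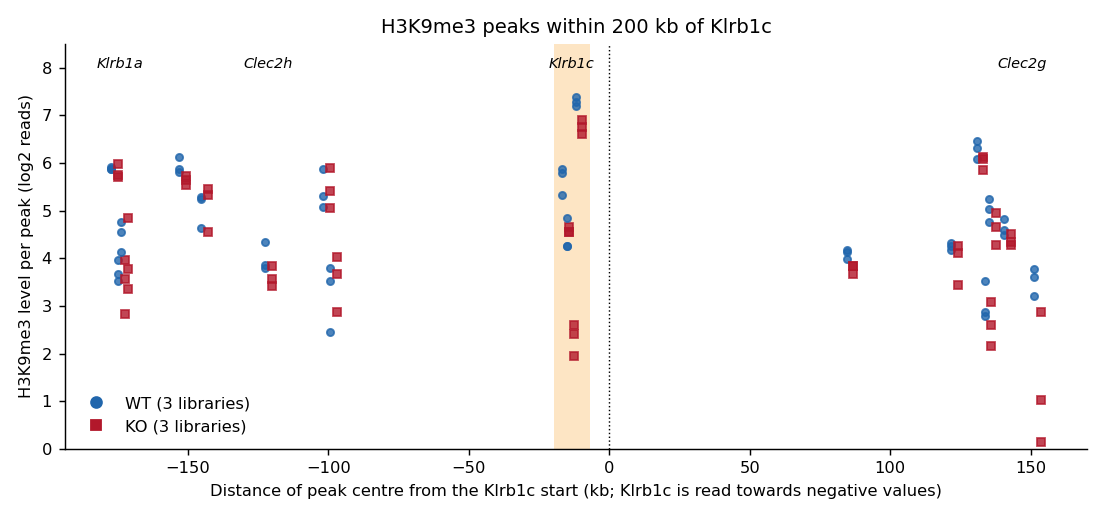
H3K9me3 level (log2 reads, vertical axis) of each peak within 200 kb of Klrb1c against the distance of its centre from the Klrb1c start (kb), with WT libraries as blue circles and KO libraries as red squares, drawn slightly apart. In the shaded band the 3 Klrb1c peaks have KO values below all WT values, while of the 15 other peaks none was called.

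Lower signal in a bulk crypt isolate cannot be told apart from a smaller share of cells carrying the mark. Of 12 leukocyte marker genes, 3 had a peak (Cd3e, Cd8a and Itgam), with differences of -0.59, -0.58 and 0.16 that did not pass the test (limma adjusted p = 0.550, 0.426 and 0.830). Of 13 colon epithelial marker genes, Lgr5 and Vil1 had peaks, and the 2 Lgr5 peaks differed by -0.39 and 0.00093 without passing the test (limma adjusted p = 0.715 and 1.00). A mark of silent chromatin does not measure the number of cells, and the part of cell makeup in the Klrb1c result was not tested. No peak lay at Smarcad1, so these data do not check the deletion itself. The Vil1 peak, in the gene whose promoter drives the Cre, had log2 read counts of 4.92 to 5.82 in WT and of 10.8 to 11.2 in KO, higher in every KO library. This peak of 14100 bp was called higher, with a difference of 5.68 (limma adjusted p = 1.24e-35). The Cre was brought in as a transgene under this promoter. Whether reads from its copies of Vil1 sequence add to the KO values was not tested.

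Clec2g, a lectin-like gene of the same complex and a gene that the study names, had 2 peaks. The peak of 300 bp in an intron (chr6:128941501-128941800) had log2 read counts of 3.21, 3.77 and 3.61 in WT and of 2.87, 1.02 and 0.15 in KO. KO lay below WT in all libraries, but its values were spread widely. The difference of -2.18 (standard error 0.61, 95% interval -3.41 to -0.95) did not pass the test (limma adjusted p = 0.0504). The recovered reads were 8, 15 and 14 in WT and 6, 2 and 1 in KO, where the lowest step can be 0 or 1 read. The call depended on the setting, with adjusted p values of 0.00906 without KO replicate 1, 0.0266 with voom on the recovered reads and 0.0475 with the replicate number as a block, but 0.293 without WT replicate 2 (all limma). The peak of 1350 bp on the 5′ side of the gene differed by -0.26 (standard error 0.25, limma adjusted p = 0.787).

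The other lectin receptor peaks showed no called difference. Besides Klrb1c the Klr family had 9 peaks at 6 genes, among them Klrb1a, Klra5 and Klra8, whose differences ran from -0.48 to 0.24. The mean over these 9 peaks was 4.49, 4.23 and 4.25 in WT and 4.27, 4.14 and 4.29 in KO, so the groups overlapped. With the Klrb1c peaks the Klr mean was 4.82, 4.67 and 4.58 in WT and 4.33, 4.26 and 4.35 in KO, without overlap. The Clec family had 22 peaks at 12 genes, of which 15 lay in the cluster of the Clec4 genes (receptors of myeloid cells for sugars and damaged cells) between 122962351 and 123280500 on chromosome 6. Differences in the family, apart from the narrow Clec2g peak, ran from -0.41 to 0.41. The widest Clec peak, 3450 bp in an intron of Clec12a, an inhibitory receptor of myeloid cells, had log2 read counts of 6.29, 6.51 and 6.17 in WT and of 6.20, 6.10 and 6.32 in KO. Clec3b, which encodes tetranectin, had a 3000-bp peak with KO values of 5.45 to 5.92 below all WT values of 6.05 to 6.16, at an adjusted p of 0.318 (limma).

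**Figure D2:**
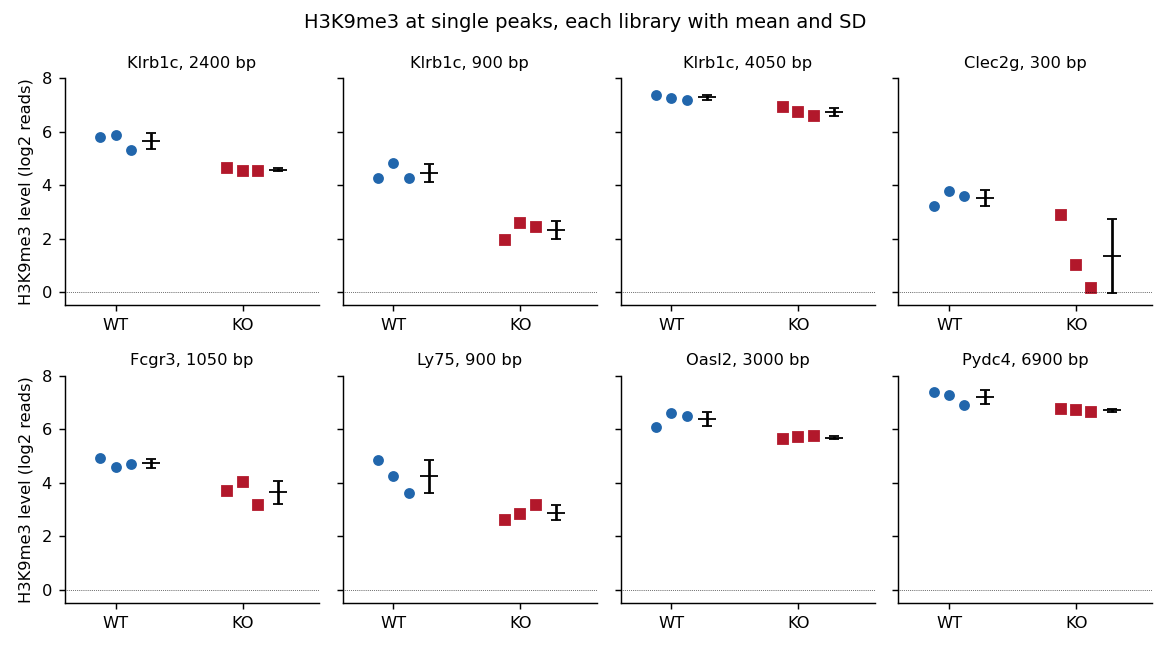
H3K9me3 level (log2 reads) of 8 peaks in each of the 3 WT (blue circles) and 3 KO (red squares) libraries, with the mean and SD in black beside them and the peak width in bp in each title. The 3 Klrb1c peaks and the 4 peaks in the lower row passed the test, while at the Clec2g peak the KO libraries spread from 0.15 to 2.87 and the test was not passed.

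The MHC genes held 4 peaks at 4 of 45 annotated genes. H2-Aa, an MHC class II chain that presents peptides to helper T cells, had a 1350-bp peak beyond its 3′ end with log2 read counts of 4.63, 4.92 and 4.55 in WT and of 4.25, 3.73 and 3.44 in KO. All KO values were below WT, with a difference of -0.89 (standard error 0.28) that passed only without KO replicate 1 (limma adjusted p = 0.0340) and not with all libraries (0.0948). The peaks at H2-Oa and H2-Eb2, also class II genes, and at H2-Q7, a class I gene, differed by 0.26, -0.24 and -0.07, and their groups overlapped.

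Immunoglobulin-like receptors had peaks at Siglece, an inhibitory receptor for sialic acid, and at 3 of 12 Cd300 genes, which encode lipid-binding receptors of myeloid cells. The 5 Cd300 peaks covered 10.8 kb in a stretch of 55.95 kb on chromosome 11. They were wide for members, with a median of 2250 bp, and their mean was 4.96, 5.23 and 5.01 in WT and 5.04, 5.18 and 4.82 in KO. Both the widest of them (3900 bp) and the one with the highest WT level per kb (2250 bp, 4.38 log2 reads per kb) belonged to Cd300c, and they differed by 0.09 and -0.36. Differences over the family ran from -0.36 to 0.13, and all 5 had 95% intervals within 1 log2 unit of 0. No peak carried a Pir or Lilr name in the authors' annotation, where GENCODE vM21 has 2 Pir and 4 Lilr genes.

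The interferon-inducible families of the rule had 2 peaks. No peak carried an Ifi2 name in the authors' annotation. In GENCODE vM21 15 genes carry one, and peaks annotated to any of them under another symbol would be missed. The 11 Slfn and 12 Gbp genes had 1 peak each. That is 9.09% of the Slfn and 8.33% of the Gbp genes, where 10.2% of all annotated genes had a peak. Interferon-inducible genes outside these names had peaks too, Oasl2 and Pydc4 among them. The 900-bp peak on the 5′ side of the pseudogene Slfn10-ps had log2 read counts of 4.50, 3.77 and 4.26 in WT and of 3.42, 3.19 and 3.44 in KO. Its groups did not overlap, but the difference of -0.82 did not pass (standard error 0.32, limma adjusted p = 0.277). In an intron of Gbp8, a guanylate-binding protein gene, a 2700-bp peak differed by -0.37 (limma adjusted p = 0.508).

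Antigen receptor loci held 30 peaks at 22 genes, all but the Iglc2 peak at variable segments, which are rearranged only in lymphocytes. Igk had 17 peaks at 14 of 166 annotated genes, Igh 7, Tra 4 and Igl and Trb 1 each. Most were narrow and weak, with a median width of 675 bp and a median of 8 to 14 recovered reads per library. The Igk mean over its 17 peaks was 3.57, 3.65 and 3.801 in WT and 3.77, 3.75 and 3.77 in KO. Its widest peak, 2850 bp on the 5′ side of Igkv4-90, had log2 read counts of 5.34, 5.50 and 5.85 in WT and of 5.14, 4.81 and 5.19 in KO, without overlap but with an adjusted p of 0.264 (limma). The highest WT level per kb in these loci was 4.76 log2 reads per kb, at a 300-bp peak beside Trav8-1 that differed by -0.74 without passing the test. Within Igk and Igh the highest were at 300-bp peaks beside Igkv1-35 and Ighv1-30, both 4.60 log2 reads per kb, with differences of -0.39 and -0.05, and the widest Igh peak, 1950 bp beside Ighv1-49, differed by 0.09. Picking a peak for its WT level favours a lower KO value. Across these loci 19 of 30 peaks had a positive difference and none was called.

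The NLR sensors were the largest group, with 61 peaks at 10 genes, and none was called. NLR proteins detect microbial products and danger signals in the cytosol, and several Nlrp genes, such as Nlrp5, act in the oocyte instead. Of 21 annotated Nlrp genes, pseudogenes included, 9 had a peak (42.9%). Among all genes of GENCODE vM21 10.2% did, and among its protein-coding genes 21.01%. Nlrp4d is annotated as a pseudogene. Nlrp4e had 12 peaks, Nlrp4b and Nlrp9c 10 each, Nlrp4d 8, Nlrp1b 7, Nlrp5 6 and Nlrp4f 4. Apart from the single Nlrp12 peak, those on chromosome 7 lay in runs of 13.5 to 16.3 peaks per 100 kb, counted from the first to the last member peak. The genome as a whole had 2.02, but windows that begin and end on member peaks are dense by construction, so the values are not directly comparable. In the run around Nlrp4d and Nlrp4b 43 of the 61 peaks belonged to other genes or none.

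Between the genes of this group the small differences did not run one way. The 12 Nlrp4e peaks had means of 4.39, 4.31 and 4.30 in WT and of 4.62, 4.49 and 4.61 in KO, with a positive difference at 10 peaks. At Nlrp9c the mean over the 10 peaks was 3.89, 3.67 and 3.84 in WT and 3.53, 3.66 and 3.64 in KO, with a positive difference at 2. KO libraries were all above WT for Nlrp4e and all below for Nlrp9c, but no peak of either gene passed the test and differences between genes were not tested. The Nlrp9c gap was very narrow, with a lowest WT mean of 3.670 and a highest KO mean of 3.664. For Nlrp1b, Nlrp4b, Nlrp4d, Nlrp4f and Nlrp5 the library means of the groups overlapped. Among the 59 Nlrp peaks KO lay entirely above WT at 7 (11.9%) and entirely below at 3 (5.08%), where 7.2% and 8.42% of all peaks did. At 1 of the 7, an Nlrp4d peak (chr7:10359301-10360500), the difference was 0.60 (standard error 0.30, limma adjusted p = 0.475). The widest member peak, 6900 bp in an intron of Nlrp4e (chr7:23309251-23316150), had log2 read counts of 7.06, 7.25 and 6.95 in WT and of 6.95, 7.08 and 6.88 in KO. At this strong peak the difference was tightly bounded, at -0.12 (95% interval -0.38 to 0.15). The highest Nlrp level per kb in WT, 4.85 log2 reads per kb, was at a 300-bp intronic peak of Nlrp9c with log2 read counts of 3.37, 2.86 and 3.11 in WT and of 1.48, 2.59 and 2.42 in KO. Its groups did not overlap, but the difference of -0.95 did not pass (standard error 0.53, limma adjusted p = 0.547). The peak was picked for its WT level, a choice that favours a lower KO value. Naip1, a sensor of bacterial secretion needles, had 2 intronic peaks that differed by 0.33 and -0.28. Over the 59 Nlrp peaks the mean was 4.16, 4.02 and 4.04 in WT and 4.05, 4.12 and 4.11 in KO.

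**Figure D3:**
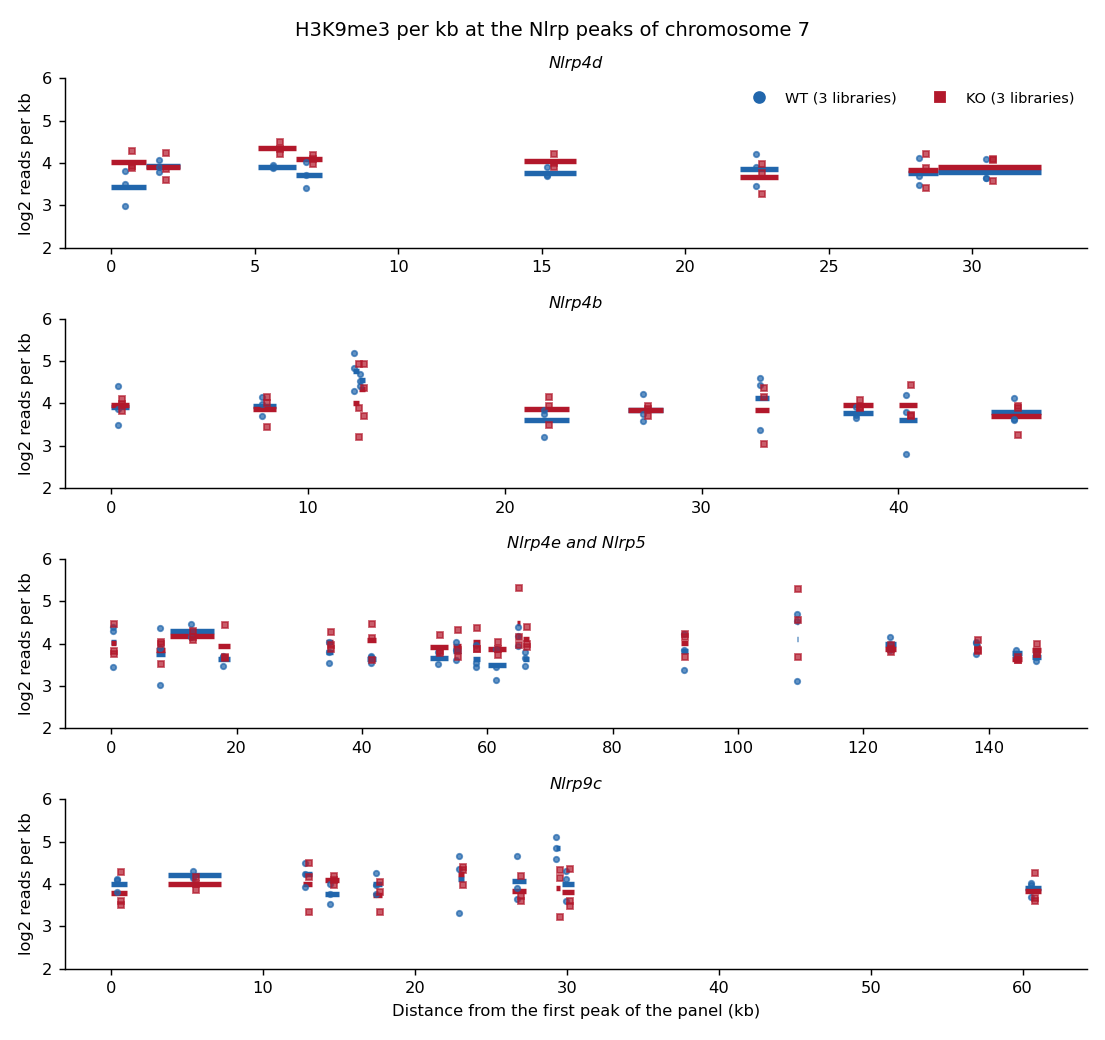
H3K9me3 level per kb (log2 reads per kb) at the Nlrp4d, Nlrp4b, Nlrp4e, Nlrp5 and Nlrp9c peaks of chromosome 7 against the distance from the first peak of each panel (kb), with bars for the WT (blue) and KO (red) means over the width of the peak and points for the libraries. WT and KO means differ most at a narrow Nlrp9c peak (-0.95), and none of the peaks in the 4 panels was called.

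Compared by family, the WT level per kb was close to that of the whole table. Its median over all peaks was 3.97 log2 reads per kb, over all members 4.00, over Klr 4.20, Clec 4.12, Cd300 4.10, Igk 3.96, Igh 3.94 and Nlrp 3.91. Relative to the WT input, at peaks with at least 10 input reads, the median stood 0.84 above that of all peaks for the 3 such Cd300 peaks and 0.68 above for 6 Klr peaks, and 0.11 below for 26 Nlrp peaks. Without the Klrb1c peaks it stood 0.26 above for the remaining 4 Klr peaks. The median KO difference was -0.22 over Klr, -0.14 over Clec, 0.07 over Cd300, 0.13 over Igh, 0.11 over Igk and 0.07 over Nlrp, beside 0.00 over all peaks. Over the 9 Klr peaks other than those of Klrb1c the median difference was -0.09. The sign of the Klr and the Igk median held in each alternative run, but the Klr median was -0.10 without KO replicate 1 and -0.35 without KO replicate 3, and the Igk median was 0.0055 with input subtracted. The Clec median was -0.23 without WT replicate 1 and 0.22 with input subtracted, and the Igh median turned to -0.43 with input subtracted. The Cd300 median turned to -0.18 with input subtracted, -0.012 without WT replicate 3, -0.030 without KO replicate 2 and -0.035 as a mean over genes, and the Nlrp median to -0.03 without WT replicate 2 and -0.14 as a mean over genes. None of these medians was given a test.

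**Figure D4:**
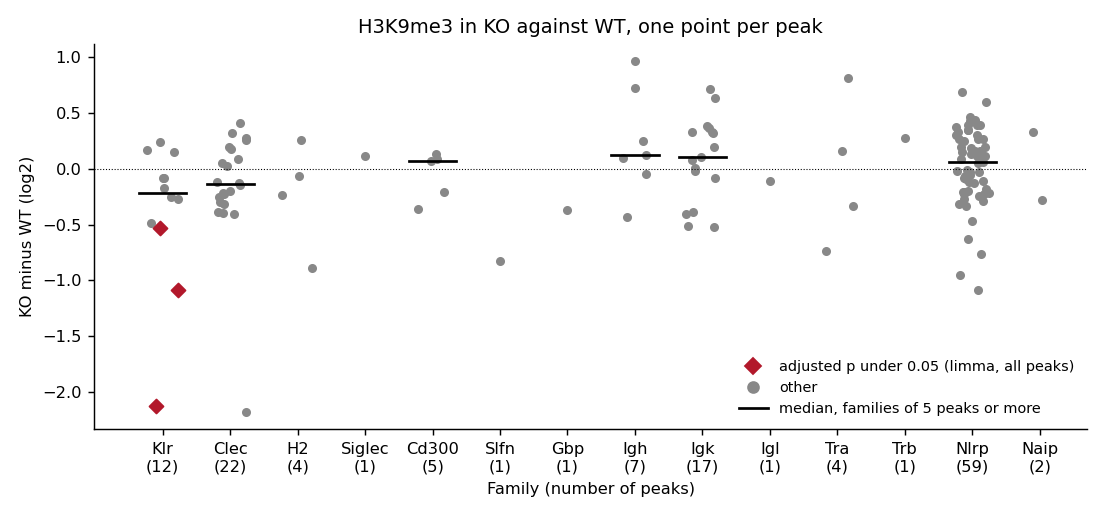
KO minus WT (log2) for each of the 137 member peaks by family, with the number of peaks below each name, called peaks as red diamonds and medians of families with 5 peaks or more as black bars. The 3 called peaks are the Klr diamonds at -0.53, -1.08 and -2.13, and the Clec2g peak at -2.18 is grey because it missed the threshold.

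**Figure D5:**
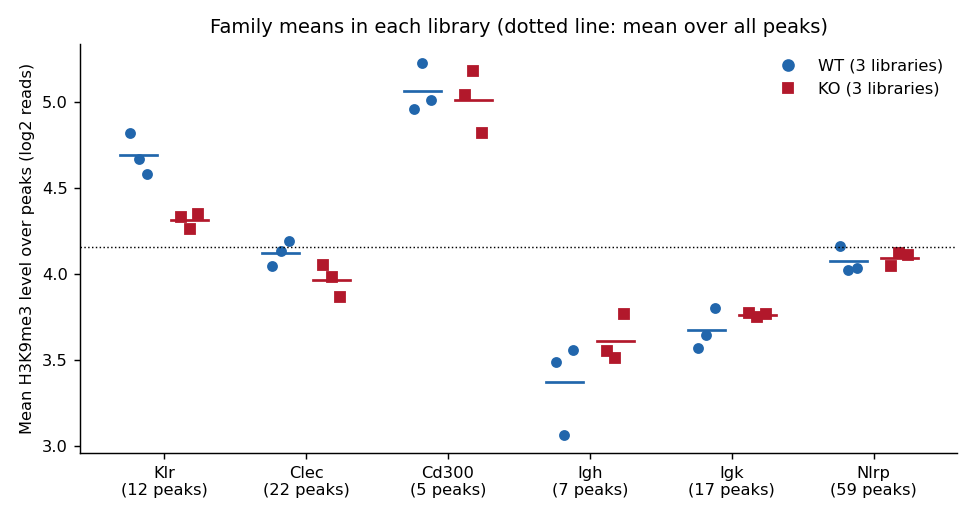
Mean H3K9me3 level (log2 reads, axis not from 0) over the peaks of each family in the 3 WT (blue circles) and 3 KO (red squares) libraries, with group means as lines and the mean over all 53761 peaks dotted. KO libraries lie below WT without overlap for Klr, a gap that the 3 Klrb1c peaks carry, and the groups overlap for Clec, Cd300, Igh, Igk and Nlrp.

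All members are annotated to a gene within 5 kb by rule, and few covered a gene start, a share that was not compared with other peaks. By the gene models of GENCODE vM21, 56 members were intronic, 20 covered part of an exon, 31 lay on the 3′ side and 24 on the 5′ side of the gene, and 4 covered an annotated transcript start, at Nlrp4b, Nlrp4d, Nlrp4e and Nlrp4f. For the other 6, all at Igh segments, the gene identifier was not found there. The peaks annotated to Igkv13-87 and Igkv12-47, counted on the 5′ side, lie more than 5 kb from the GENCODE model of their identifier, so their side is uncertain. Members held more repeat sequence than other peaks, with a median of 51.1% masked bases beside 37.8% over all peaks and 32.2% over peaks with a gene, whereas the median GC content was 43.3% beside 41.9%. By chromosome, 50 members lay on chromosome 6 and 48 on chromosome 7.

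Shared sequence set the Klrb1c peaks apart from each other. Counting alignments of at least 200 bp at 80% identity or more, the 900-bp peak shared sequence with 0 other peaks of the table and the 4050-bp peak with 2. The 2400-bp peak shared sequence with 120 other peaks, none of them members. No base of it was covered by more than 98 of these peaks, and the stretch printed above is the part covered most. Of these 120 peaks 15 were called (12.5%), all lower in KO, where 1.66% of all peaks were called. Their mean was 5.22, 5.35 and 5.30 in WT and 4.99, 4.94 and 4.95 in KO, with a negative difference at 98 and a median of -0.31. The repeat-rich Clec2g peak of 1350 bp shared sequence with 284 other peaks, of which 3 were called, and the Nlrp4e peak with 40, of which none was called. The 120 peaks hold copies of related sequence, were looked up after the Klrb1c result was known and were given no test.

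Among 151 other immune and interferon genes, 31 had peaks, 45 in all, and 4 of the 45 were called (8.89%), all lower in KO, where 0.863% of all peaks and 1.42% of peaks with a gene were called lower. This list, too, was drawn up with earlier results of these data known. At Fcgr3, a low-affinity receptor for IgG, a 1050-bp peak on the 5′ side had log2 read counts of 4.93, 4.60 and 4.70 in WT and of 3.71, 4.03 and 3.18 in KO (difference -1.10, standard error 0.28, limma adjusted p = 0.0229). At Ly75, an endocytic receptor of dendritic and epithelial cells, an intronic 900-bp peak had 4.87, 4.24 and 3.61 in WT and 2.62, 2.82 and 3.18 in KO (difference -1.37, standard error 0.36, limma adjusted p = 0.0309). The Oasl2 peak, of 3000 bp over part of an exon of this interferon-inducible gene, had 6.10, 6.61 and 6.49 in WT and 5.64, 5.71 and 5.75 in KO (difference -0.71, standard error 0.16, limma adjusted p = 0.00857). At Pydc4, an interferon-inducible gene, a 6900-bp peak over part of an exon had 7.41, 7.31 and 6.93 in WT and 6.79, 6.72 and 6.67 in KO (difference -0.49, standard error 0.14, limma adjusted p = 0.0458).

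In all 4 peaks the groups did not overlap, but each call rested on certain libraries. The Oasl2 call was lost without WT replicate 2 (limma adjusted p = 0.154) or WT replicate 3 (0.0819). The Fcgr3 call was lost without WT replicate 1, 2 or 3 or KO replicate 3, with adjusted p values up to 0.171, and the Ly75 call without WT replicate 1 or 2 or KO replicate 1 or 2, up to 0.384 (limma). The Pydc4 call held only without WT replicate 3 among the fits that left out a library, and reached 0.328 without WT replicate 1 (limma). All 4 calls were lost with a variance prior without a trend (limma adjusted p = 0.235 for Fcgr3, 0.225 for Ly75, 0.411 for Oasl2 and 0.566 for Pydc4). The Ly75 call was also lost with voom on the recovered reads (limma adjusted p = 0.103) and the Pydc4 call with libraries centred on their median (0.0569). With input subtracted, the Fcgr3 and Pydc4 differences became 0.04 and 0.22 and their calls were lost, since the inputs held 11 and 64 reads in WT but 5 and 39 in KO. Over all 45 peaks the median difference was -0.07, with 17 positive. Uncalled peaks without overlap went both ways. KO lay entirely above WT at Tlr6, Tlr2 and the 2400-bp Il1r1 peak, with differences of 0.71, 0.49 and 0.55 (limma adjusted p = 0.133, 0.132 and 0.237). It lay entirely below at Olr1 and Slamf6, among others, with differences of -0.50 and -0.95 (limma adjusted p = 0.190 and 0.184).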

How the data were processed

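The authors used Trim Galore and Bowtie2 2.3.2 (GRCm38), required a mapping quality of 20 or more, discarded duplicates, and ran the MACS peak finder of SeqMonk over the ChIP libraries jointly, against both inputs. The labels give single reads of 50 bp and the study's methods paired reads of 100 bp, so what was counted as 1 read is uncertain. The ChIP columns were deposited as log2 counts of reads in each peak, matched by the authors to 1 shared distribution, so a change of equal size at most peaks would be removed, and the deposited input values are log2 whole read counts that were not scaled. Reads of low mapping quality are left out, so peaks in near-identical gene copies (Nlrp4, Klra, Igkv) may be undercounted. The authors' table of changed peaks holds their own edgeR p-values and fold changes and was not used. The smallest ChIP values of a library rise in steps of whole reads, and the reads recovered by counting the steps had a median of 14 to 20 per peak and library.

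KO and WT were compared with limma 3.58.1 in R 4.3.3 (empirical Bayes with a mean trend, two-sided, Benjamini-Hochberg over all 53761 peaks), a test that was first tried on simulated data. Other steps used Python 3.11.15, pandas 2.3.3, scipy 1.17.1 and blastn 2.17.0. The members and gene lists were chosen with earlier results of these data known. Named are all called peaks, the widest peak and the peak with the highest WT level per kb in each family of at least 5 peaks, the genes with most peaks, Clec2g and Smarcad1. H2-Aa, Clec3b, Slfn10-ps and other single peaks were chosen after their values were seen. Uncalled peaks without overlap were described singly more often where KO was lower, so their direction does not describe the members. Choosing a peak for its highest WT level favours a lower KO value, since the same WT values enter the difference. The side of a gene on which a peak lies was taken from the strand in GENCODE vM21, since the upstream and downstream words of the deposited table give the opposite side at 97.3% of 2685 peaks beside genes. Alternatives were a prior without a trend, a mean log2 value of at least 4, centring, quantile normalization, input subtraction, the replicate block, stricter thresholds, peaks overlapping the gene, leaving out each library, and voom on recovered reads, which for the named peaks was chosen after seeing the data.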

Additional observations from a re-analysis of the deposited data

Results flagged for a closer look

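The comparison between genotypes did not use the input libraries. At 4 of the 128 member peaks with at least 2 reads in both inputs, the KO to WT ratio of input reads, scaled by the totals over all peaks, was at least 2 or at most 0.5 with an exact Clopper-Pearson 95% interval that left out 1. The ratio was 4.95 (interval 1.38 to 26.9, from 14 KO and 3 WT reads) at a 900-bp exonic peak of Nlrp4b and 0.193 (0.0208 to 0.883, from 2 and 11 reads) at the peak annotated to Igkv13-87. It was 0.283 (0.0683 to 0.887, from 4 and 15 reads) in an intron of Klra17 and 0.424 (0.182 to 0.914, from 10 and 25 reads) in an intron of H2-Eb2. The intervals cover counting error only, each genotype has 1 input library, and with 128 peaks looked at some such ratios arise by counting. None of these 4 peaks was called between KO and WT.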

How the results depend on the processing

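Members called lower in KO numbered 3. They numbered 1 with a prior without a trend, 1 among peaks overlapping the gene, and 2 to 5 without each library in turn. With input subtracted, 20 members were called lower and 25 higher, and 15873 peaks in all. The single input per genotype then enters all 3 libraries alike, so its counting error adds to the difference and not to the spread. In every other setting 0 members were called higher. All called peaks numbered 892, and 127 with a prior without a trend, 556 with voom on recovered reads, 554 at an adjusted p under 0.01, 511 with a log2 fold change of at least 1, and 570 to 805 without each library. With input subtracted the Fcgr3 and Pydc4 differences turned to 0.037 and 0.22. The replicate numbers did not pair the libraries (correlations of same-numbered deviations -0.001, 0.019 and 0.016), and with the replicate block 4 members were called lower, 0 higher and 872 peaks in all, the added member being Clec2g. Depth limits the narrow peaks most.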
